A study of Mus musculus with 24 samples.

Results

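The genes of oxidative phosphorylation were described here in mouse bone marrow-derived dendritic cells: the subunits of respiratory complexes I to V, cytochrome c, and the complex I assembly factors whose symbols begin with Nduf. Members were all symbols of the expression table that begin with Ndufa, Ndufb, Ndufc, Ndufs, Ndufv, Uqcr, Cox4 to Cox8 or Atp5, the 4 Sdh subunits, Cyc1, Cycs, and the 13 protein-coding genes of the mitochondrial genome, whose symbols begin with mt-. This rule found 112 of 55291 symbols, 99 nuclear and 13 mitochondrial, after 14 symbols marked as pseudogenes (-ps) were left out. Of these, 103 reached 1 TPM (transcripts counted per length and scaled to a fixed library total of 1000000) in at least 4 libraries and were tested, 90 nuclear and all 13 mitochondrial, among 13246 genes tested in all.

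The cells were grown from bone marrow with granulocyte-macrophage colony-stimulating factor, one culture from each of 4 mice of 3 strains labelled B6, C57 and PWD. B6 is the common abbreviation of C57BL/6. The sources used here do not say how the mice labelled C57 differed from those labelled B6, and PWD mice are an inbred line founded from wild-caught animals of the subspecies Mus musculus musculus. Each culture was left untreated or was given lipopolysaccharide (LPS), the endotoxin of Gram-negative bacteria, from E. coli 0111:B4 at 10 ng/ml for 6 hours, which gave 6 groups of 4 libraries. No mutant allele was named for any group.

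Complexes I, III and IV pump protons across the inner mitochondrial membrane as electrons pass from NADH to oxygen, complex II feeds in electrons from succinate, cytochrome c carries electrons from complex III to complex IV, and complex V (ATP synthase) uses the proton gradient to make ATP. Complex II is encoded by nuclear genes alone, and the other complexes combine nuclear subunits with subunits made inside the mitochondrion, so transcripts of both genomes are needed to build them. In mouse dendritic cells and macrophages, endotoxin is known to shift energy supply from oxidative phosphorylation towards glycolysis.

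TPM values keep no record of sequencing depth. Structural RNAs took between 28.8 and 44.2% of a library. They split the libraries of 2 groups by replicate number, with replicates 1 and 2 above replicates 3 and 4 in untreated PWD cells and in LPS-treated C57 cells. Across all tested genes the median LPS difference on the log2(TPM + 1) scale was -0.43 in B6, -0.32 in C57 and -0.32 in PWD cells, so each LPS difference below is set against that shift and against a second scaling, by the median of ratios to a reference library, that removes it. Between untreated strains the median difference of all genes was 0.14 for PWD minus B6, 0.17 for C57 minus B6 and -0.04 for PWD minus C57. Summed markers of conventional dendritic cells were 7168 to 9551 TPM in B6 libraries and 2578 to 5902 TPM in the others, so the strains also differed in markers of cell composition. Their part in the strain differences below was not tested. In bulk samples, fewer cells of a type and less RNA per cell cannot be told apart.

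Per unit of length, as TPM counts it, the highest mean over the 24 libraries in each nuclear class was that of Ndufv2 in the complex I core (62.6 TPM), Ndufa3 among complex I accessory subunits (135 TPM), Sdhd in complex II (90.2 TPM), Uqcrh in complex III (191 TPM), Cox4i1 in complex IV (349 TPM) and Atp5b, the catalytic beta subunit, in complex V (528 TPM). Cycs, the somatic cytochrome c, averaged 39.6 TPM and Ndufaf8, a complex I assembly factor, 14 TPM. The 99 nuclear members summed to 10238 ± 633 TPM in untreated B6 cells and 7683 ± 241 TPM after LPS (mean ± SD, n = 4 in every group). In C57 cells the sum was 11002 ± 365 TPM untreated and 8397 ± 748 TPM with LPS, and in PWD cells it was 11469 ± 970 TPM and 9181 ± 303 TPM. On the TPM scale the untreated and LPS-treated libraries of a strain did not overlap in this sum in any of the 3 strains. The median of all genes was also lower with LPS on that scale. Median-of-ratios factors, by which values are divided, were 0.946 to 1.17 in untreated and 0.703 to 0.754 in LPS-treated B6 libraries. Dividing the B6 sums by them turns the order, with LPS above untreated. In C57 libraries the factors were 1.23 to 1.27 untreated and 0.869 to 1.06 with LPS. Dividing the C57 sums by them leaves the treatments overlapping, so the order does not turn there.

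The 5 complexes contributed in similar proportions in every group. In untreated B6 cells the nuclear subunits of complex V made up 35.5% of the nuclear sum, complex IV 25.0%, complex I 23.3%, complex III 11% and complex II 2.62%. After LPS the share of complex I in B6 cells was 22%, that of complex II 2.44% and that of complex IV 26.4%. These shares do not depend on how libraries are scaled.

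**Figure D1:**
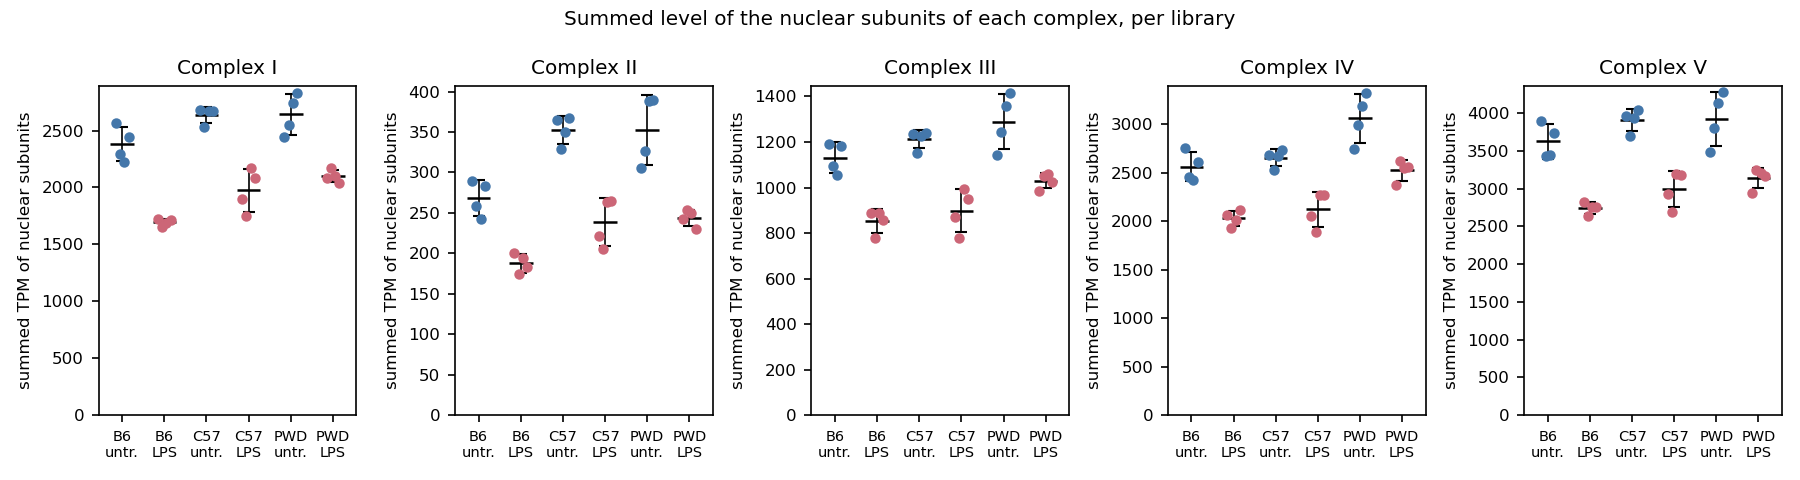
Summed TPM of the nuclear subunits of each complex (y axis, from 0) in the 24 libraries (points), by strain and treatment (blue, untreated; red, LPS), with group means and SD bars (n = 4). For complex I the B6 mean was 2383 TPM untreated and 1694 TPM with LPS; this order is on the TPM scale, on which the median of all genes was also lower with LPS.

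The LPS comparison asks how endotoxin changed these transcripts within a strain. On the TPM scale 83 of the 90 tested nuclear members were lower after LPS in B6 cells, against 59.7% of all genes tested, and 1, Cycs, was higher, against 11.9% (71.6% of all genes were called in either direction). In C57 cells 75 nuclear members were lower, against 52.2% of all genes, and none was higher, against 10.4% (62.5% in either direction), by limma at an adjusted p under 0.05. In PWD cells 63 were lower, against 52.4%, and none was higher, against 11.1% (63.5% in either direction). At an unadjusted p under 0.05 the numbers higher were 0 in C57 and 0 in PWD cells as well. The median difference of the nuclear members was -0.45 in B6, -0.44 in C57 and -0.36 in PWD cells, close to the medians of all genes, and after median-of-ratios scaling it was 0.10, -0.08 and 0.02. Under that scaling 24 nuclear members were called higher and 12 lower in B6 cells, 5 higher and 25 lower in C57 cells, and 21 higher and 17 lower in PWD cells, against 31.2 and 30.4%, 24.8 and 26.4%, and 27.1 and 26.1% of all genes tested. The nuclear set as a whole thus had about the median change of the transcriptome, while single members stood apart from it. The TPM calls included 58 nuclear members lower in all 3 strains, against 39.3% of all genes tested, and no member was called in opposite directions in any pair of strains.

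Counts of lower members by complex stand against 59.7, 52.2 and 52.4% of all genes in B6, C57 and PWD cells on the TPM scale. With median-of-ratios scaling the shares of all genes were 30.4, 26.4 and 26.1% lower and 31.2, 24.8 and 27.1% higher. The 7 core subunits of complex I, which carry its flavin and iron-sulfur clusters, were lower in all 3 strains on the TPM scale. Their medians were -0.54, -0.51 and -0.54 in B6, C57 and PWD cells, and with median-of-ratios scaling 3, 3 and 4 of the 7 remained lower and 1, 0 and 0 were higher. Of 30 accessory subunits of complex I, 29, 24 and 21 were lower (2, 8 and 1 with median-of-ratios scaling, where 4, 0 and 8 were higher). All 4 subunits of complex II were lower in each strain, with medians of -0.45, -0.52 and -0.54 (1, 2 and 2 of them with median-of-ratios scaling, where 1, 0 and 0 were higher). In complex III 8, 9 and 6 of 9 were lower (0, 3 and 2 with that scaling, where 4, 1 and 2 were higher). The nuclear subunits of complex IV had medians of -0.29, -0.35 and -0.22, with 10, 10 and 8 of 13 lower (0, 1 and 1 with that scaling, where 6, 2 and 6 were higher). In complex V 16, 15 and 11 of 17 were lower (1, 5 and 4 with that scaling, where 7, 1 and 4 were higher). The 8 assembly factors of the Ndufaf series had medians of -0.78, -0.50 and -0.52, and 8, 5 and 5 of them were lower (4, 2 and 2 with that scaling, and none higher). In PWD cells the TPM shares of complexes III, IV and V and of the assembly factors were not far above that of all genes.

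**Figure D2:**
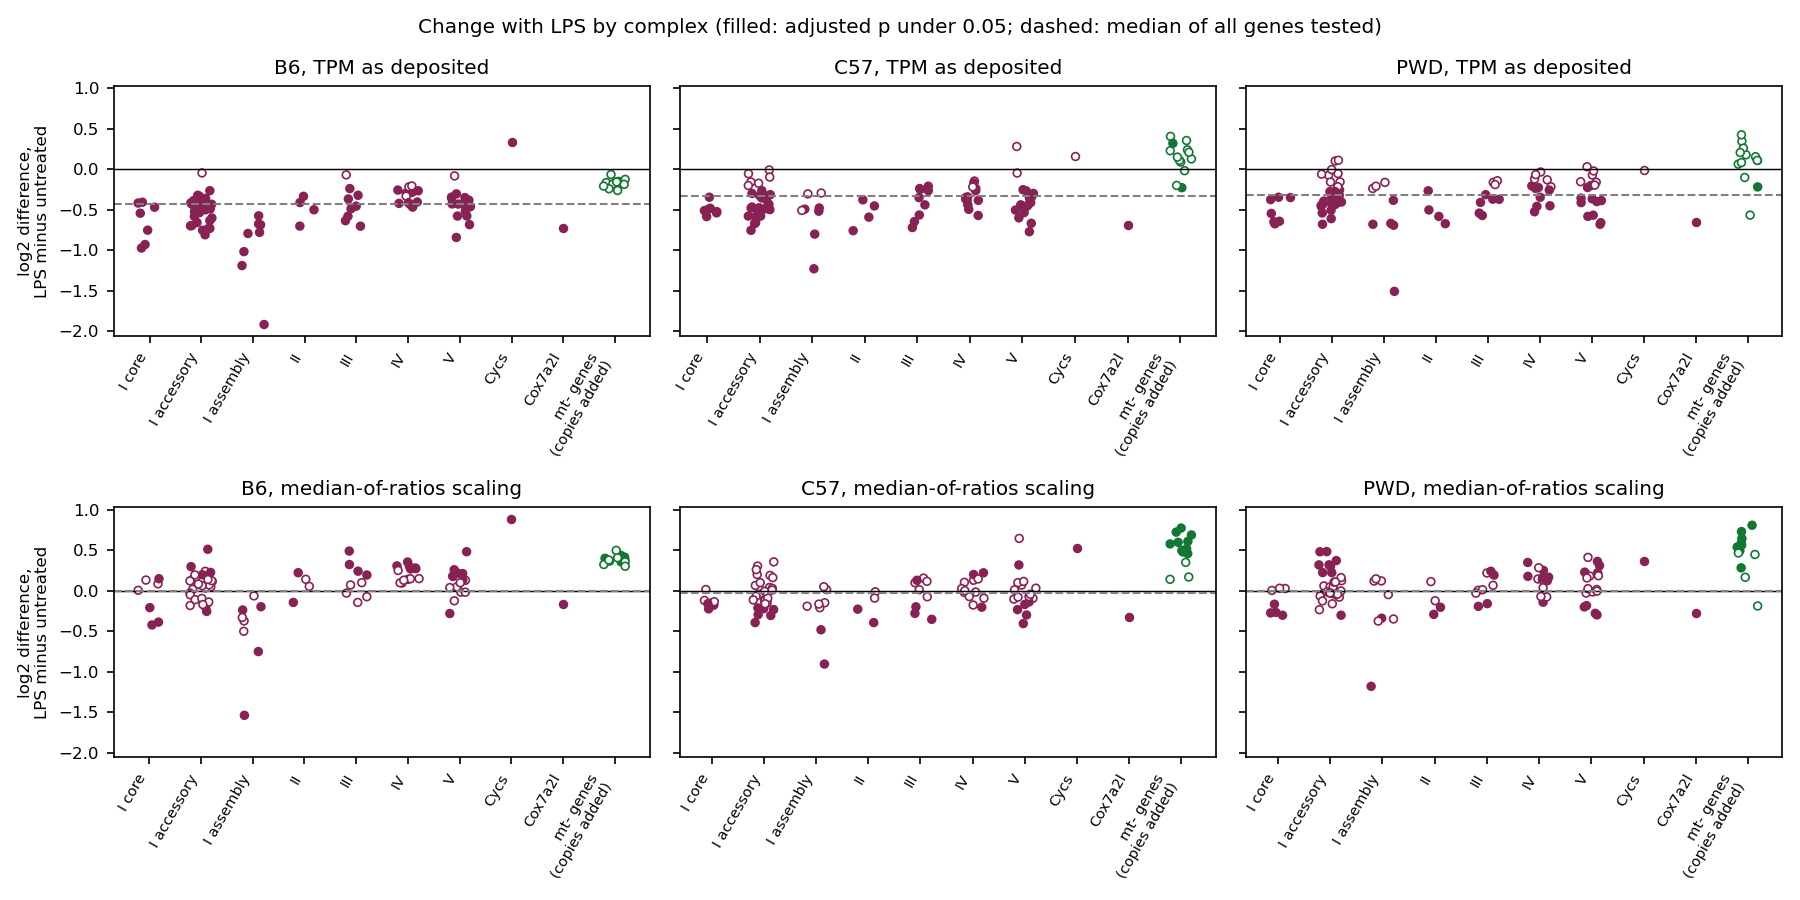
LPS minus untreated log2 difference (y axis) of tested members (points), by complex, in the 3 strains, with TPM as deposited (top) and median-of-ratios scaling (bottom). Points of mt- genes are values with their nuclear copies, described below, added. Filled points have an adjusted p under 0.05 by limma. The dashed line marks the median of all genes, in the top row -0.43, -0.32 and -0.32 in B6, C57 and PWD cells. In the top row most nuclear members lie below 0 and around that line, so the sign of many of them turns when libraries are scaled by the median of ratios.

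The largest fall among called members in each strain was that of Ndufaf4, which assists the assembly of complex I. It stood at 8.15, 8.03, 7.74 and 9.18 TPM in the untreated B6 cultures and at 1.68, 0.992, 1.96 and 1.31 TPM with LPS. In C57 cells the values were 9.18, 9.05, 9.70 and 9.85 TPM untreated and 3.13, 3.49, 4.44 and 2.93 TPM with LPS, and in PWD cells 6.23, 9.43, 9.83 and 13.6 TPM and 3.14, 2.51, 2.78 and 2.36 TPM. No LPS-treated culture reached any untreated culture of its strain. The log2 differences were -1.91 in B6 (SE 0.15, adjusted p = 2.79e-11), -1.23 in C57 (adjusted p = 2.1e-07) and -1.51 in PWD cells (adjusted p = 4.87e-09), and with median-of-ratios scaling -1.54, -0.90 and -1.18, all called. Among the other assembly factors, Ndufaf2 fell in B6 cells by 1.19 on the log2 scale (adjusted p = 2.54e-07), and its differences in C57 and PWD cells were -0.30 and -0.16, not called. Ndufaf8 fell in B6 cells by 1.02 (adjusted p = 0.000731), a call that was lost with median-of-ratios scaling.

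Ndufs8, an iron-sulfur subunit of the complex I core, was measured at 68.2, 55.6, 55.9 and 57.3 TPM in untreated B6 cells and at 30.4, 28.2, 27.8 and 32.4 TPM with LPS. In C57 cells it was at 51.1, 46.5, 46.0 and 49.8 TPM and at 38.6, 31.5, 44.0 and 38.2 TPM. In PWD cells it was at 74.2, 80.3, 79.6 and 75.9 TPM and at 52.5, 61.4, 61.8 and 63.1 TPM. The groups did not overlap within any strain, and the gap was widest in B6 cells. Its log2 difference was -0.97 in B6 cells (SE 0.09, adjusted p = 7.55e-10) and remained called with median-of-ratios scaling (-0.42), whereas those of -0.34 in C57 (adjusted p = 0.00227) and -0.37 in PWD cells (adjusted p = 0.00107) became 0.016 and 0.0049 with that scaling. Atp5g2, one of the genes for the membrane ring subunit c of ATP synthase, was at 188, 170, 138 and 163 TPM in untreated and 94.2, 90, 91 and 89.3 TPM in LPS-treated B6 cells. It fell by 0.84, 0.77 and 0.68 on the log2 scale in B6, C57 and PWD cells, and all 3 calls remained with median-of-ratios scaling (-0.28, -0.40 and -0.30). Its own line held 89.0 to 92.7% of the signal shared with an identical copy, Gm10175 on chromosome 7. Sdhd, a membrane anchor of complex II, was at 98.2, 97.3, 86.5 and 102 TPM in untreated and at 63.8, 52.1, 59.3 and 60 TPM in LPS-treated B6 cells. Its log2 differences were -0.70, -0.76 and -0.67 in B6, C57 and PWD cells, all called, also with median-of-ratios scaling (-0.14, -0.39 and -0.29).

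The most abundant members of complexes IV and V showed smaller differences, most of which turned with the scaling. Cox4i1, the ubiquitous isoform of subunit 4 of cytochrome c oxidase, was lower on the TPM scale by 0.29, 0.26 and 0.20 in B6, C57 and PWD cells but at 0.27, 0.10 and 0.18 with median-of-ratios scaling. Atp5b was lower by 0.34, 0.30 and 0.40, and with that scaling it stood at 0.22, 0.071 and -0.014, so its sign turned in B6 and C57 cells but not in PWD cells.

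Cycs carries electrons to complex IV and is also released from mitochondria in apoptosis. It was the 1 nuclear member called higher with LPS on the TPM scale, in B6 cells. It was at 38.5, 29.1, 31.7 and 34.1 TPM in untreated B6 cells and at 40.0, 41.3, 42.3 and 45.1 TPM with LPS. In C57 cells it was at 38.8, 36.4, 40.8 and 37.2 TPM and at 42.5, 37.7, 46.7 and 46.3 TPM, and in PWD cells at 36.3, 42.4, 40.0 and 42.9 TPM and at 43.9, 38.8, 39.3 and 38.4 TPM. The libraries did not overlap in B6 cells and overlapped in C57 and PWD cells. Its log2 difference was 0.34 in B6 (SE 0.09, adjusted p = 0.00155), 0.17 in C57 (adjusted p = 0.0995) and -0.01 in PWD cells (adjusted p = 0.936), and 0.89, 0.53 and 0.36 with median-of-ratios scaling, all then called. Cycs and Cox6b2, the testis isoform of a complex IV subunit, which averaged 2.72 TPM, were the nuclear members tested that were not called lower in any strain.

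**Figure D3:**
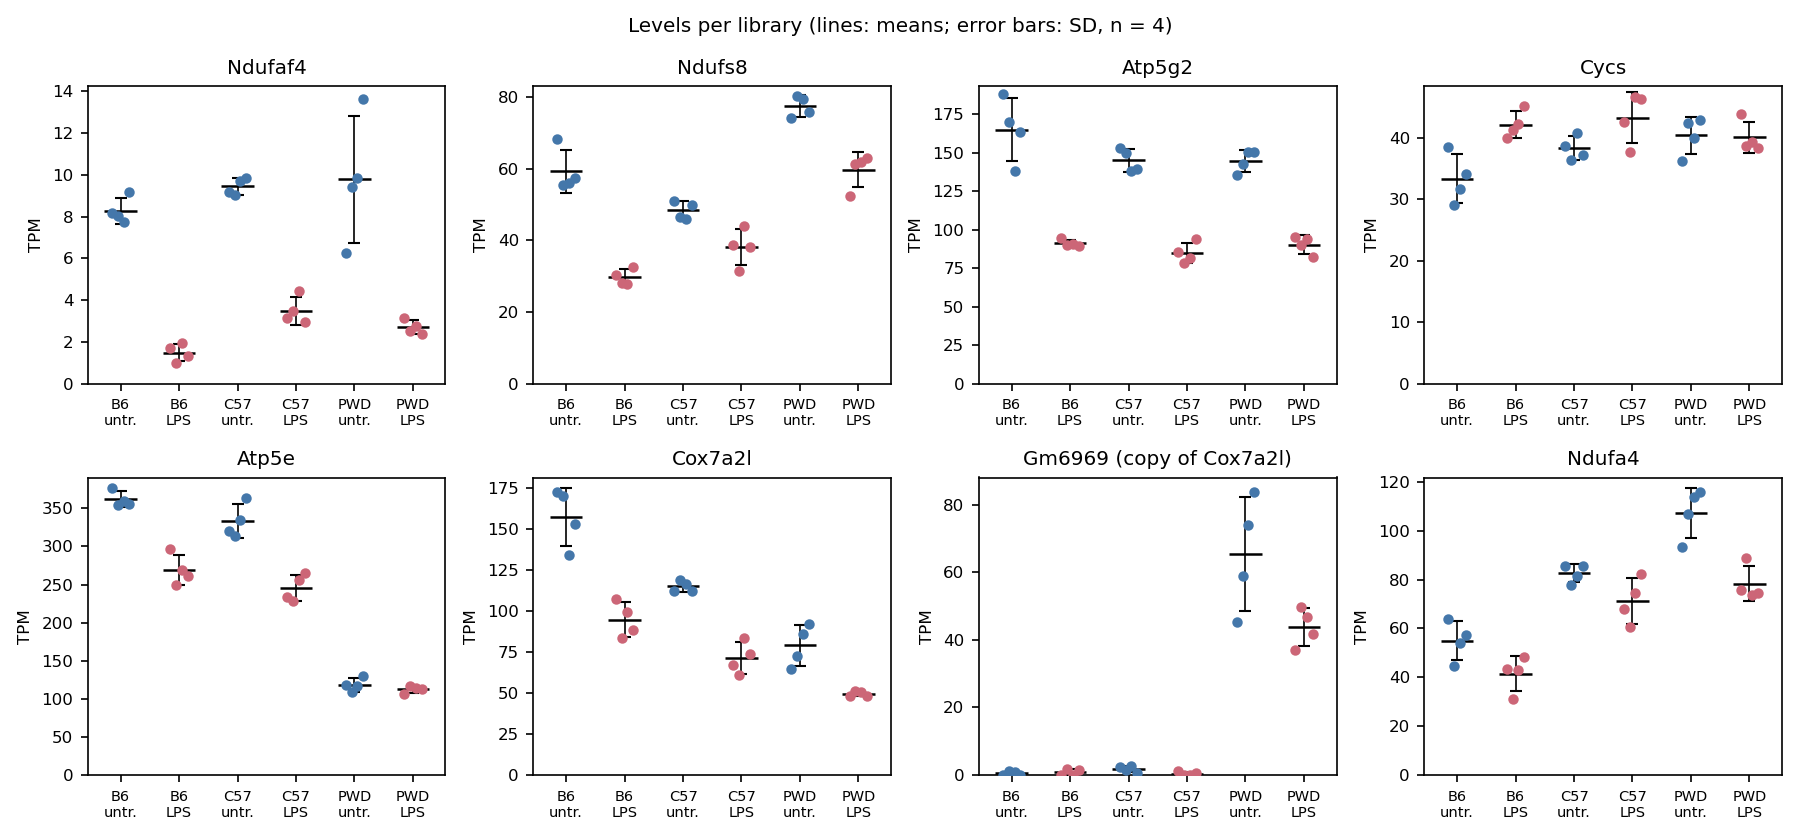
Levels in TPM (y axis, from 0) of 7 members and of Gm6969, a pseudogene copy of Cox7a2l, in the 24 libraries (points; blue, untreated; red, LPS), with group means and SD bars (n = 4). Ndufaf4 is lower with LPS in every strain under both scalings, Atp5e is lowest in PWD cells, and Gm6969 is above 30 TPM in PWD libraries alone.

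The mitochondrial genome has near-identical copies in the nuclear genome, and part of the signal of several mt- genes stood on lines of the table named for such copies. To show how alike they are, a stretch of 120 bases of mt-Co2, which encodes subunit 2 of cytochrome c oxidase, is printed from the GENCODE M21 transcripts on GRCm38 (mm10), with the same stretch of the copies Gm28661 on chromosome 1 and Gm13341 on chromosome 2. The stretches lie at chrM:7457-7576 on the plus strand, chr1:24615002-24615121 on the minus strand and chr2:22587411-22587530 on the minus strand. Capitals mark the positions at which Gm13341 differs from mt-Co2.
mt-Co2: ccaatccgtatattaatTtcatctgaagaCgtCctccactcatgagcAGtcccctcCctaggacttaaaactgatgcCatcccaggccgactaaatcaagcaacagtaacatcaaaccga
Gm28661: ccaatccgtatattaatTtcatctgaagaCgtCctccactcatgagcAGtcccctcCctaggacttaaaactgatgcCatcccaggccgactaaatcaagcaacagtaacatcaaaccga
Gm13341: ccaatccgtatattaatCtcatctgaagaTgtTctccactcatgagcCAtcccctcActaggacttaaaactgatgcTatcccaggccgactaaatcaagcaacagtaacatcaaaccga
Gm28661 has no difference from mt-Co2 in the window, and Gm13341 has 7, which are T18C, C30T, C33T, A48C, G49A, C57A and C78T, counted from 1 at the 5′ end with the mt-Co2 base first. A read from this window cannot tell mt-Co2 from Gm28661, so the line on which it was counted says nothing about its source.

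The division between lines was uneven. mt-Co2 itself was at 101, 104, 148 and 115 TPM in untreated B6 cells and at 0, 73.9, 110 and 33.1 TPM with LPS. In C57 cells it was at 62.0, 188, 0 and 65.3 TPM and at 37.9, 95.3, 14.2 and 40.5 TPM. In PWD cells it was at 784, 815, 1297 and 1168 TPM and at 652, 665, 575 and 562 TPM. Every PWD library was above every B6 and C57 library, and 2 of the 16 others were listed at 0. Gm28661, by contrast, held between 2804 and 5202 TPM in all 24 libraries, and Gm13341 held 871 to 1470 TPM in PWD libraries and at most 1.61 TPM in B6 and C57 libraries. The own line of mt-Co2 thus carried 3.1% of the gene and its copies in untreated B6 cells and 20.3% in untreated PWD cells. Copies of mt- genes on chromosome 1 held 34.0 to 39.2% of the mt- signal with copies in the 6 groups, and copies elsewhere held at most 0.0059% in B6 and C57 groups and 10.5 and 10.7% in the PWD groups. For 9 of the 13 mt- genes a copy was found, and values with copies below add each copy's TPM weighted by its length relative to the gene.

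**Figure D4:**
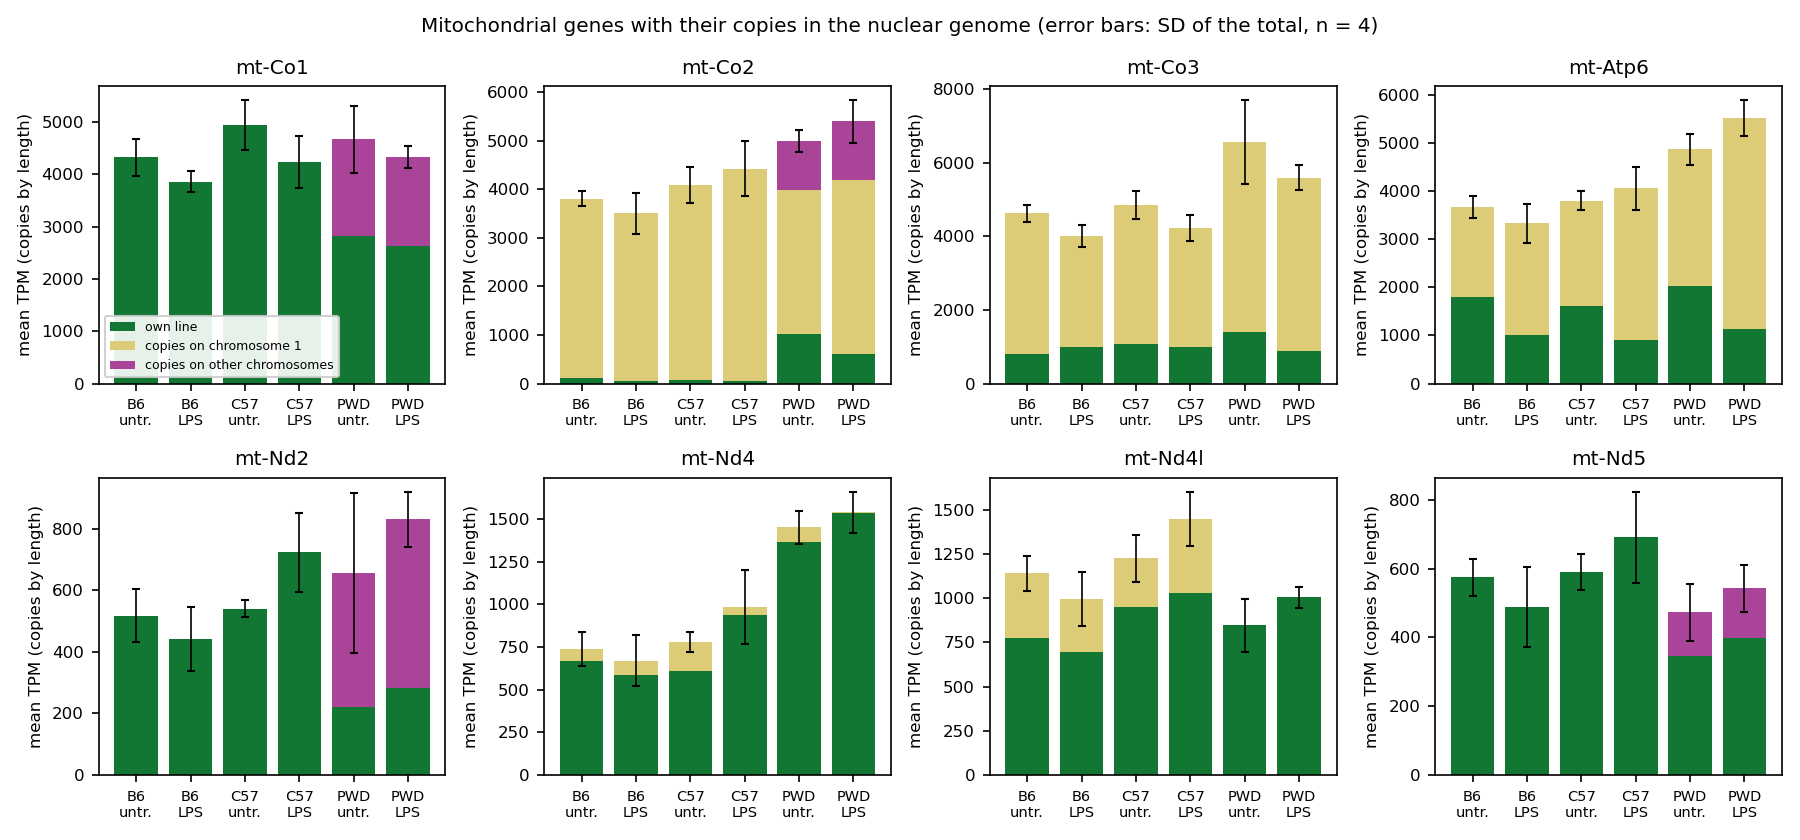
Mean TPM (y axis, from 0; n = 4 libraries) of mt- genes that have copies, in the 6 groups, split into the gene's own line, copies on chromosome 1 and copies on other chromosomes. In the PWD groups 10.5 and 10.7% of the signal with copies stands on copies outside chromosome 1, against at most 0.0059% in the others, and for mt-Co2 most of it stands on copies in every group.

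On their own lines the mt- genes showed few LPS calls on the TPM scale. In B6 cells 0 were higher and 1 lower of 13, against 11.9 and 59.7% of all genes tested, in C57 cells 1 was higher and 2 lower, against 10.4 and 52.2%, and in PWD cells 0 were higher and 1 lower, against 11.1 and 52.4%. With median-of-ratios scaling the own-line calls ran the other way, with 4, 5 and 6 of 13 higher and none lower, against 31.2, 24.8 and 27.1% of all genes higher. With copies added, 0 were higher and 0 lower in B6 cells by limma, 1 was higher and 1 lower in C57 cells, and 0 were higher and 1 lower in PWD cells, with median differences of -0.18, 0.15 and 0.11. At an unadjusted p under 0.05, with copies, 0 were higher and 1 lower in B6, 3 and 2 in C57, and 2 and 1 in PWD cells. These medians lay above those of the nuclear members in each strain, a description with no test of the 2 sets. With copies and median-of-ratios scaling together, 6, 10 and 9 of 13 were higher and none was lower, with medians of 0.38, 0.52 and 0.49.

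mt-Atp6, which encodes subunit a of ATP synthase, was the 1 mt- gene called lower on its own line in all 3 strains on the TPM scale, calls that were lost with median-of-ratios scaling (-0.38, -0.55 and -0.47 in B6, C57 and PWD cells, adjusted p = 0.26, 0.11 and 0.18). It was at 1631, 1870, 1877 and 1845 TPM in untreated and 498, 1321, 961 and 1218 TPM in LPS-treated B6 cells. Its identical copy Gm10925 (chr1:24613974-24614651, minus strand, 100% identity over 678 bases) was at 2236, 1730, 1979 and 1551 TPM and at 2399, 2270, 2121 and 2555 TPM. For each of the 4 replicate numbers the gene's own line was lower with LPS and the line of the copy higher, and between groups the own lines did not overlap while those of the copy did. The own-line differences were -0.94 in B6 (adjusted p = 0.00263), -0.92 in C57 (adjusted p = 0.00394) and -0.85 in PWD cells (adjusted p = 0.00684), and the summed differences were -0.15, 0.090 and 0.18, none called (adjusted p = 0.13, 0.38 and 0.073). mt-Nd4, a proton-pumping subunit of complex I, rose in C57 cells by 0.58 on its own line (adjusted p = 0.0222) and by 0.32 with its copy added by length (adjusted p = 0.044), and it stood at 0.20 with the copy unweighted, which was not called (adjusted p = 0.13). The own-line call was lost in the fit with a replicate block and without any 1 of 3 libraries. mt-Co1, the catalytic subunit of complex IV, was lower in C57 cells on the TPM scale, at -0.23 (adjusted p = 0.046), but at 0.14 with median-of-ratios scaling.

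The ratio of the summed mt- to the summed nuclear TPM within a library does not depend on scaling. On the log2 scale it was 0.66, 0.70, 0.81 and 0.55 in untreated B6 cells and 0.53, 1.14, 0.75 and 1.07 with LPS. In C57 cells it was 0.66, 0.74, 0.59 and 0.71 untreated and 1.16, 1.55, 0.83 and 0.82 with LPS, and in PWD cells 0.87, 0.77, 0.49 and 0.50 and 0.95, 0.83, 0.88 and 0.94. The libraries overlapped in B6 and PWD cells and were apart in C57 cells. The mean differences were 0.19 in B6, 0.42 in C57 and 0.25 in PWD cells, set against a pooled SD between replicates of 0.21, 0.25 and 0.14. Within replicates 1 and 2 they were 0.16, 0.66 and 0.076, and within replicates 3 and 4 they were 0.23, 0.18 and 0.42.

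With copies added to the mt- sum the ratio was 1.31, 1.40, 1.48 and 1.25 in untreated and 1.35, 1.76, 1.52 and 1.77 in LPS-treated B6 cells, 1.32, 1.46, 1.21 and 1.39 and 1.83, 2.21, 1.52 and 1.61 in C57 cells, and 1.68, 1.57, 1.37 and 1.40 and 1.89, 1.78, 1.83 and 2.00 in PWD cells. The LPS libraries were then above the untreated ones in C57 and PWD cells and overlapped them in B6 cells, and the mean differences were 0.24, 0.45 and 0.37. No test across genes applies to this ratio, and it is given as a description. On the mt- own lines the SD of the LPS group was 0.28 in B6 and 0.34 in C57 cells, against 0.11 and 0.07 untreated. This wider spread limits what 4 cultures a group can show. Own-line ratios of 1.16, 1.55, 0.83 and 0.82 in LPS-treated C57 replicates stood with structural RNA shares of 39.9, 41.2, 31.6 and 33.4%. For LPS-treated B6 replicates the shares were 33.2, 41.2, 35.3 and 38.5%, and for untreated PWD replicates 41.9, 40.3, 29.3 and 28.8%. In these groups libraries at 38.5% or more had higher ratios than the others. In untreated C57 cells the highest share, 35.8% in replicate 3, stood with the lowest ratio, 0.59. The part of structural RNA in this ratio was not tested.

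**Figure D5:**
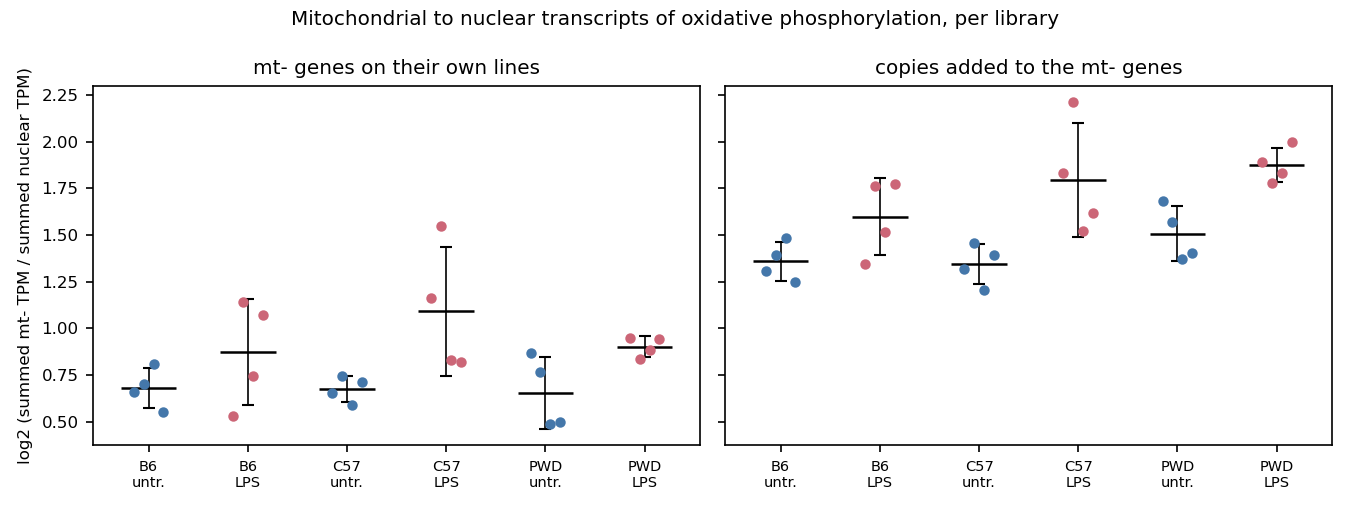
Log2 ratio of summed mt- to summed nuclear member TPM (y axis) in the 24 libraries (points; blue, untreated; red, LPS), with group means and SD bars (n = 4), with mt- genes on their own lines (left) and with copies added (right). Means with LPS are above untreated means in each strain, by 0.19 to 0.42 on own lines, and the libraries of C57 cells do not overlap.

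The strain comparisons ask how the same transcripts differed between mice of different origin. In untreated cells 45 of 90 nuclear members were higher in PWD than in B6 cells, against 37.2% of all genes tested, and 12 were lower, against 19.7%. C57 cells were higher than B6 cells for 29 nuclear members, against 31.9%, and lower for 3, against 6.92%, shares near or below those of all genes. PWD cells were higher than C57 cells for 17, against 20.1%, and lower for 15, against 26.2%. With median-of-ratios scaling these splits became 29 higher and 16 lower, 15 higher and 19 lower, and 30 higher and 12 lower, against 31.6 and 30.2%, 20.2 and 19.6%, and 27.5 and 27.5% of all genes, so the balance for C57 minus B6 turned. With LPS, 58 nuclear members were higher and 7 lower in PWD than in B6 cells, against 49.7 and 19% of all genes, 44 higher and 3 lower in C57 than in B6 cells, against 49.1 and 9.69%, and 32 higher and 14 lower in PWD than in C57 cells, against 24.4 and 29.8%. Under median-of-ratios scaling those became 25 and 27, 9 and 43, and 41 and 15, against 35.7 and 34.1%, 27.5 and 29.7%, and 32.8 and 30.7% of all genes.

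The largest strain difference of a nuclear member was that of Atp5e (chr2:174461072-174464105, minus strand), the epsilon subunit of the central stalk of ATP synthase. It was at 377, 354, 360 and 356 TPM in untreated B6 cells, at 320, 314, 335 and 364 TPM in C57 cells and at 118, 109, 116 and 129 TPM in PWD cells. With LPS it was at 296, 250, 269 and 261 TPM, at 234, 228, 255 and 265 TPM and at 106, 116, 114 and 113 TPM. Every PWD library was below every B6 and C57 library of either treatment. The difference in untreated cells was -1.61 for PWD minus B6 (SE 0.07, adjusted p = 1.97e-16) and -1.49 for PWD minus C57 (adjusted p = 1.37e-15), and with LPS it was -1.25 and -1.12, called under both scalings. No pseudogene copy of Atp5e passed the limits set here, which were 90% identity over 100 bases and 1 TPM in a library. The part that sequence differences between PWD and the mm10 reference play in this and other nuclear PWD differences was not tested. Of the 16 other complex V subunits tested, 9 were higher in untreated PWD than in B6 cells on the TPM scale, against 37.2% of all genes tested. In that comparison 1, Atp5md, was lower, against 19.7%, with a difference of -0.29 (adjusted p = 0.00344). With median-of-ratios scaling 4 of the 16 were higher and 3 were lower, Atp5md (-0.45), Atp5g2 (-0.34) and Atp5h (-0.28). These counts stand against 31.6 and 30.2% of all genes, and neither is above its share.

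Cox7a2l, also called Scaf1, joins complexes III and IV in supercomplexes. It was at 173, 170, 134 and 153 TPM in untreated B6 cells, at 112, 119, 117 and 112 TPM in C57 cells and at 64.9, 72.7, 86.2 and 92.3 TPM in PWD cells, so the 3 strains did not overlap. Gm6969, a processed pseudogene copy (chr12:24638669-24639010, minus strand, 98.0% identity over 342 bases), was at 45.4, 58.8, 74.0 and 83.9 TPM in untreated PWD cells, at 36.9, 49.6, 46.8 and 41.8 TPM with LPS, and at most 2.69 TPM in B6 and C57 libraries. To show how little separates these lines, 90 bases within the coding sequence are printed from GENCODE M21 transcripts on GRCm38 (mm10), at chr17:83502636-83502725 and chr12:24638702-24638791, both on the minus strand, with capitals at the differing positions.
Cox7a2l: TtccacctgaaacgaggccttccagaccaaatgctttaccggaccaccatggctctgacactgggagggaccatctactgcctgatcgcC
Gm6969: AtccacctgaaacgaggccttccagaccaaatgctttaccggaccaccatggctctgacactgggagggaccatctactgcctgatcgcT
The 2 differences are T1A and C90T, counted from 1 at the 5′ end with the Cox7a2l base first. On its own line Cox7a2l was lower in PWD than in B6 cells by 0.99 on the log2 scale (SE 0.11, adjusted p = 9.33e-09). With the copy added by length the difference was -0.66 (adjusted p = 1.3e-05), and with the copy added unweighted it was -0.14 (adjusted p = 0.31). Against C57 cells the 3 values were -0.55 (adjusted p = 0.000122), -0.23 (adjusted p = 0.10) and 0.28 (adjusted p = 0.052), so the size and sign of this difference depended on how the copy's signal was counted. C57 minus B6, where the copy is near 0, was -0.44 (adjusted p = 0.00192). LPS lowered Cox7a2l by 0.73, 0.69 and 0.65 in B6, C57 and PWD cells, called under both scalings.

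Other nuclear members were higher in untreated PWD than in untreated B6 cells under both scalings. Ndufa4, now placed in complex IV, was at 63.7, 44.7, 53.9 and 57.3 TPM in untreated B6 cells, at 85.5, 77.8, 81.3 and 85.4 TPM in C57 cells and at 93.2, 107, 114 and 116 TPM in PWD cells, and the 3 strains did not overlap. The differences were 0.96 for PWD minus B6 (SE 0.12, adjusted p = 9.74e-08) and 0.59 for C57 minus B6 (adjusted p = 0.000304). With LPS, Ndufa4 was higher in PWD than in B6 cells by 0.91 (adjusted p = 1.7e-07 by limma). Against C57 cells with LPS it stood at 0.14 (adjusted p = 0.34), with overlapping libraries, and was not called under either scaling. Ndufa5, an accessory subunit of complex I, was at 32.7, 33.9, 39.1 and 36.2 TPM in untreated B6 cells and at 61.3, 69.7, 77.3 and 70.4 TPM in PWD cells, a difference of 0.95 (adjusted p = 3.28e-08) that stood at 1.40 with LPS (adjusted p = 1.6e-11). Cox5a, a nuclear subunit of complex IV, was higher by 0.62 (adjusted p = 3.98e-06). Cox7a1, the heart and skeletal muscle isoform of a complex IV subunit, was low in all cells but at 10.9, 13.1, 8.30 and 17.2 TPM in untreated PWD cells against 5.42, 3.90, 6.31 and 5.01 TPM in B6 cells, a difference of 1.09 (adjusted p = 3.35e-06).

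In the other direction, Ndufs5, an accessory subunit of complex I, was at 59.4, 57, 60.5 and 58.9 TPM in untreated B6 cells and at 38.7, 43.4, 25.6 and 37.0 TPM in PWD cells, a difference of -0.71 (adjusted p = 5.85e-06) that was called under both scalings. Ndufs8 was lower in untreated C57 than in B6 cells, by 0.28 on the log2 scale (adjusted p = 0.0162), and the difference was -0.49 with median-of-ratios scaling. Sdhb, the iron-sulfur subunit of complex II, was at 67.4, 56.2, 52.3 and 57.7 TPM in untreated B6 and at 94.2, 87.7, 89.3 and 94.1 TPM in untreated C57 cells, a difference of 0.64 (adjusted p = 2.72e-05) that was called under both scalings. All 4 complex II subunits were higher in untreated C57 than in untreated B6 cells on the TPM scale, against 31.9% of all genes tested. With median-of-ratios scaling 2 were higher, against 20.2%, and none was lower.

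Among mt- genes, 3 were higher and 5 lower in PWD than in B6 cells on their own lines (57% of all genes tested were called in this comparison), 0 were called by limma between C57 and B6 cells (38.8%), and 3 were higher and 5 lower in PWD than in C57 cells (46.2%). With copies added these counts were 5 and 3, 0 and 0, and 5 and 3. Between C57 and B6 cells the unadjusted counts were also 0. With LPS, 5 were higher and 3 lower for PWD minus B6 (68.6% of all genes called), 7 and 0 for C57 minus B6 (58.8%), and 3 and 6 for PWD minus C57 (54.2%). With median-of-ratios scaling the own-line counts with LPS were 3 and 5, 0 and 1, and 3 and 5. The shares of all genes were then 35.7 and 34.1%, 27.5 and 29.7%, and 32.8 and 30.7%. The 10 higher in C57 than in B6 cells with copies added under LPS became 0, with 2 lower, once scaled by the median of ratios.

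mt-Cytb, the mitochondrial subunit of complex III, has no copy among those found. It was at 1166, 1044, 1238 and 1034 TPM in untreated B6 cells, at 1231, 1239, 1113 and 1346 TPM in C57 cells and at 2169, 2170, 1977 and 1959 TPM in PWD cells. PWD libraries were above all others, by 0.89 over B6 (SE 0.11, adjusted p = 1.28e-07) and 0.75 over C57 (adjusted p = 2.65e-06), and by 1.2 over B6 with LPS (adjusted p = 3.87e-10). mt-Nd6, the complex I subunit encoded on the other strand from the remaining mt- protein genes, was at 200, 181, 239 and 229 TPM in untreated B6 cells, at 226, 221, 232 and 311 TPM in C57 cells and at 61.4, 62.8, 89.0 and 83.2 TPM in PWD cells. It was lower in PWD cells by 1.52 than in B6 (SE 0.29, adjusted p = 0.000161) and by 1.73 than in C57 cells (adjusted p = 4.87e-05), again with no copy found. mt-Nd4 was higher in PWD than in B6 cells by 1.04 on its own line (adjusted p = 0.000255) and by 0.98 with its copy.

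For other mt- genes the difference changed when copies were added. mt-Co1 was at 4464, 4549, 3802 and 4505 TPM in untreated B6 cells and at 2521, 2393, 3163 and 3214 TPM in PWD cells. The own-line difference was -0.63 (adjusted p = 4.28e-06), and with its copies, Gm13340 on chromosome 2 (97.6% identity) and Gm29216, added by length it was 0.10 (adjusted p = 0.37). mt-Nd2, of complex I, was at 546, 465, 626 and 434 TPM in untreated B6 cells and at 305, 319, 130 and 132 TPM in PWD cells, where replicates 1 and 2 stood above replicates 3 and 4. Its own-line difference of -1.34 (adjusted p = 0.000145) became 0.26 (adjusted p = 0.32) with Gm13339 added by length and 1.02 with that copy unweighted. mt-Nd5 differed by -0.74 on its own line (adjusted p = 0.000281) and by -0.29 with copies on chromosomes 4 and 13 (adjusted p = 0.10). With copies, mt-Co2 was higher in PWD than in B6 cells by 0.39 (adjusted p = 0.00058) and than in C57 cells by 0.29 (adjusted p = 0.0096). The part that sequence differences between PWD and the mm10 reference play in these lines was not tested.

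Differences in the LPS response between strains, tested as the interaction of strain and treatment, were called for few members. The nuclear members gave 11 responses higher and 2 lower in PWD than in B6 cells, against 16 and 7.5% of all genes tested (a higher response to LPS here is a smaller fall or a larger rise), 5 and 0 in C57 against B6 cells, against 10.9 and 3.39%, and 2 and 0 in PWD against C57 cells, against 5.41 and 5.99%. In either direction 23.5, 14.3 and 11.4% of all genes were called in these 3 comparisons. By limma 0 mt- genes were called on their own lines in any of the 3 (2 higher and 1 lower, 4 and 0, and 0 and 0 at an unadjusted p under 0.05). With copies added, mt-Nd4l, a complex I subunit, was called for PWD minus B6, at 0.47 (adjusted p = 0.0376), and that call was lost with median-of-ratios scaling as well (0.29). Under that second scaling mt-Co3, of complex IV, was called lower on its own line for PWD minus B6, at -1.19 (adjusted p = 0.0256), and it stood at -0.19 once copies were added (adjusted p = 0.293), which was not called. Nuclear counts with median-of-ratios scaling were 2 and 14, 3 and 26, and 8 and 1, against 14.9 and 16.8%, 10.6 and 14.9%, and 11.2 and 10.4% of all genes, so the direction of the first 2 turned. Ndufs8 kept its call under both scalings, with its fall smaller by 0.60 in PWD than in B6 cells (SE 0.13, adjusted p = 0.00129) and smaller by 0.63 in C57 cells (adjusted p = 0.00165). The Atp5e response differed by 0.37 between PWD and C57 cells (adjusted p = 0.0214), with Atp5e lower after LPS in C57 cells by 0.44 and at -0.07 in PWD cells. That call remained with median-of-ratios scaling (0.38) and was lost without C57 untreated replicate 4 or PWD untreated replicate 2. The corresponding difference from B6 cells, 0.36 (adjusted p = 0.0143), was not called with that scaling. The Cycs response was lower in PWD than in B6 cells by 0.34 (adjusted p = 0.0471), and by 0.52 with median-of-ratios scaling, though on the TPM scale the call was lost without any 1 of 12 of the 16 libraries and in the fit with a replicate block (adjusted p = 0.0717).

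AA467197, a nuclear-encoded paralog of Ndufa4 known in mouse as Nmes1, is not matched by the rule. It was at 790, 736, 776 and 846 TPM in untreated B6 cells and at 1968, 1924, 2254 and 2338 TPM with LPS. Its rise was 1.43, 1.37 and 1.35 on the log2 scale in B6, C57 and PWD cells, called under both scalings. Ndufa4 itself was lower with LPS in B6 cells by 0.40 and in PWD cells by 0.45 on the TPM scale, and stood at 0.15 and -0.07 with median-of-ratios scaling. Ndufa4l2, the other paralog, reached at most 0.717 TPM and was not tested.

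Genes that serve the same complexes were described from lists set up for this purpose. Their counts of lower genes stand against 59.7, 52.2 and 52.4% of all genes tested on the TPM scale in B6, C57 and PWD cells, and against 30.4, 26.4 and 26.1% with median-of-ratios scaling. Of 17 tricarboxylic acid cycle genes, 15, 16 and 14 were lower with LPS in B6, C57 and PWD cells on the TPM scale, and 7, 9 and 8 with median-of-ratios scaling. Idh3a, the catalytic subunit of the NAD-dependent isocitrate dehydrogenase, fell by 1.27, 0.86 and 1.04, and Fh1, fumarate hydratase, by 1.35, 0.75 and 0.70, under both scalings. Large-subunit proteins of the mitochondrial ribosome were lower for 42, 34 and 33 of 49 (21, 13 and 12 with median-of-ratios scaling, where 10, 10 and 9 were higher). Mrpl12 among them fell by 1.51, 1.04 and 1.06. Of 9 other complex I assembly genes 7, 7 and 6 were lower, of 6 complex III assembly genes 4, 5 and 5, of 25 complex IV assembly genes 16, 16 and 16, and of 8 for complexes II and V 7, 8 and 6. With median-of-ratios scaling these counts of lower genes were 6, 4 and 3, then 4, 3 and 4, then 5, 3 and 6, and then 2, 3 and 2. The TPM share of complex IV assembly genes in B6 cells lies near that of all genes.

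Among 25 genes of mitochondrial transcription and mRNA handling, 21, 13 and 17 were lower with LPS (12, 6 and 6 with median-of-ratios scaling), the C57 share being near that of all genes under both scalings. Polrmt, the mitochondrial RNA polymerase, was lower by 1.04, 0.53 and 0.76, the C57 value not being called with median-of-ratios scaling, and Lrpprc, which stabilises mitochondrial mRNAs, fell by 0.94, 0.72 and 0.75 under both scalings. Of 9 nuclear regulators of respiration genes, 6, 2 and 4 were lower and 1, 2 and 1 higher (3, 2 and 3 lower and 3, 6 and 4 higher with median-of-ratios scaling). Ppargc1b, a coactivator of mitochondrial genes, was at 2.83, 1.84, 3.05 and 4.28 TPM in untreated and 0.397, 0.179, 0.251 and 0.782 TPM in LPS-treated B6 cells, and fell by 1.5, 1.31 and 1.72 under both scalings.

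Promoters are shown for the assembly factor with the largest fall and for cytochrome c, the nuclear member called higher on the TPM scale. They are shown because both hold a motif of a factor known to act on respiration genes. The 250 bases before each start are from RefSeq on GRCm38.p6, at chr4:24897833-24898082 on the plus strand for Ndufaf4 and chr6:50566570-50566819 on the minus strand for Cycs. Capitals mark the NRF1 motif, GCGCA followed directly by TGCGC, in Ndufaf4 and the cyclic AMP response element TGACGTCA in Cycs.
Ndufaf4: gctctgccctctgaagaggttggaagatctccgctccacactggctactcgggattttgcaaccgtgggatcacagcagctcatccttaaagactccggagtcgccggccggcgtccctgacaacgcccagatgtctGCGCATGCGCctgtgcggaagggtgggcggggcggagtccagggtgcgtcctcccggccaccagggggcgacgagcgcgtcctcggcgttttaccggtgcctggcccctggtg
Cycs: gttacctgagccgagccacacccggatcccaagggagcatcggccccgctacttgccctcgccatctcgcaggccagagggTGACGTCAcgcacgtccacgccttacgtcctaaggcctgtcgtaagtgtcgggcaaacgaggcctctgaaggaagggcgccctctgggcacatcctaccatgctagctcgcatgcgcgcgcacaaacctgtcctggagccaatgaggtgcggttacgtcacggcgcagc
Both motifs read the same on either strand and do not overlap each other. Of 99 nuclear members, 77 matched a promoter in the RefSeq table and 75 of these were tested. The NRF1 letters were in 5 of the 75 (6.67%) and in 183 of the promoters of 9419 genes tested (1.94%). The response element was in 5 (6.67%) against 3.05% of all, and CCGGAAG, the letters bound by GABPA, searched on both strands, was in 14 (18.7%) against 16.5%. Members with the NRF1 letters were Atp5g2, Atp5k, Cox6a1, Ndufa11 and Ndufaf4, and those with the response element were Cycs, Ndufa10, Ndufa11, Ndufb2 and Uqcrfs1. Only exact matches to the letters were counted. Near matches, such as tcgcatgcgc in the Cycs promoter, which differs from the NRF1 letters at its first base, were not. A match describes the letters in this window, not binding.

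The 9 members that did not reach the level for testing were isoforms and copies known from other tissues or low in these cells. Cox7b2, Cox8b and Cox8c were listed at 0 in every library. Cox4i2, the lung isoform of subunit 4, reached at most 0.429 TPM, Cox6a2, the muscle isoform, 1.10 TPM, and Cox6c2 2.37 TPM, in fewer than 4 libraries at or above 1 TPM. Ndufa4l2, Ndufa11b and Ndufs6b made up the rest.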

How the data were processed

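Bulk RNA-seq of 24 libraries from a stranded kit was deposited by the authors as 1 table of TPM values per gene symbol. Per the submitters' processing notes STAR and edgeR were used with mm10; the sources used here give no versions, annotation, counting method or treatment of reads that match several places. Depth cannot be had from TPM, so precision is known only from the 4 cultures a group.

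From there, log2(TPM + 1) was fitted with limma 3.58.1 (R 4.3.3), as 1 mean per group over all 24 libraries with a trended, robust prior, for the 13246 genes at 1 TPM or more in at least 4 libraries. P-values were adjusted by Benjamini-Hochberg over all of them, and calls were made at an adjusted p under 0.05. Fold changes are on the log2(TPM + 1) scale and understate those of low genes. The fit was tested on simulated data before use. Copies were GENCODE M21 pseudogene transcripts aligned to member transcripts with blastn 2.17.0, with at least 90% identity over 100 bases and 1 TPM in a library. Tables, sequences and figures were made with Python 3.11.15, pandas 2.3.3, numpy 2.4.6, biopython 1.88 and matplotlib 3.10.9.

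The fit was repeated with a pseudocount of 0.1 TPM, without a filter or with one of 5 TPM, median-of-ratios scaling, TPM without structural RNA, a replicate block and each library left out. Adding copies and splitting the replicates into 1 and 2 against 3 and 4 were chosen after seeing the data. The design text gives 4 mice per strain, so within a strain the same replicate number was taken to mark the same mouse, which the labels do not state. The main fit did not pair these libraries, and the replicate block paired them for LPS differences and responses only. Deviations of same-numbered untreated and LPS-treated libraries correlated at 0.051 to 0.18 over genes in the 12 pairs, 9 of which were their own best match, and those of same-numbered libraries of different strains at -0.12 to 0.13.

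Members named with values were drawn from the mt- genes, the highest member of each class and fixed genes. A further source was the 3 largest rises and falls in each comparison. These were taken among called members with a mean of 10 TPM or more and no overlap. Not every pick was given with its difference, and mt-Nd1, mt-Nd3, mt-Atp8, Ndufs7, Ndufa12, Ndufa1 and Ndufaf7 were left out. Ndufaf2, Ndufaf4, Atp5h, Atp5md, Cox5a, Cox6b2, Idh3a, Fh1 and Mrpl12 were added after their values were seen. The members and lists were chosen with earlier results of these data known. Summed markers, in TPM per library, were 736 to 1822 for macrophages, 750 to 3900 for neutrophils and at most 198 for mast cells, basophils and eosinophils, where PWD libraries were the highest. They were at most 6.0 for B and plasmacytoid cells, 0.7 for T and NK cells, 4.0 for erythroid cells and 10.2 for stromal cells.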

Additional observations from a re-analysis of the deposited data

Results flagged for a closer look

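Single libraries stood apart from the other 3 of their group in 15 of 240 groups of values examined (6.25%), where chance alone gives about 1 in 20. In untreated B6 cells these were replicate 1 for Ndufs8 at 68.2 TPM and for mt-Atp6 at 1631 TPM, and replicate 3 for mt-Co1 at 3802 TPM. In LPS-treated B6 cells they were replicate 2 for Ndufa5 at 27.0 TPM and replicate 4 for Ndufa2 at 68.3 TPM. In C57 cells they were untreated replicate 3 for Atp5md at 358 TPM, untreated replicate 4 for mt-Nd6 at 311 TPM, and LPS replicate 2 for Ndufa2 at 59.9 TPM. In LPS-treated PWD cells they were replicate 1 for Ndufs8 at 52.5 TPM and for Cycs at 43.9 TPM, replicate 2 for Ndufa4 at 88.9 TPM, and replicate 4 for mt-Co1 at 2854 TPM and for mt-Nd5 at 481 TPM. The mt- sum with copies was 36580 TPM in LPS-treated PWD replicate 4 and 31083 TPM in untreated PWD replicate 3, each apart from its group.

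The LPS response differed between strains for 8 named members by the interaction test in limma. For PWD minus B6 the differences were 0.60 for Ndufs8, 0.54 for Uqcr11 (adjusted p = 0.00234), 0.47 for Ndufs5 (adjusted p = 0.0348), 0.36 for Atp5e, -0.34 for Cycs and -0.34 for Uqcrfs1 (adjusted p = 0.0446). For C57 minus B6 they were 0.63 for Ndufs8, 0.64 for Ndufa5 (adjusted p = 0.00607) and 0.49 for Uqcr11 (adjusted p = 0.00851). For PWD minus C57 they were 0.37 for Atp5e and 0.32 for Ndufa2 (adjusted p = 0.0427). Uqcr11, a small subunit of complex III, was at 102, 105, 131 and 113 TPM in untreated and 63.2, 71.0, 68.7 and 72.5 TPM in LPS-treated B6 cells, against 146, 168, 146 and 151 and 133, 141, 142 and 130 TPM in PWD cells. Uqcrfs1, the Rieske iron-sulfur subunit of complex III, was at 85.8, 90.7, 99.1 and 104 TPM in untreated and 75.4, 72.1, 65.8 and 71.3 TPM in LPS-treated PWD cells, and its libraries overlapped in B6 cells. With median-of-ratios scaling the calls of Uqcr11, Ndufs5, Ndufa5 and of Atp5e against B6 were lost. In the fit with a replicate block those of Cycs (adjusted p = 0.0717), Uqcrfs1 (adjusted p = 0.0594) and Ndufa2 (adjusted p = 0.0674) were lost. Leaving out 1 library ended the call of Uqcrfs1 in 11 of 16 fits, of Ndufa2 in 11 and of Ndufs5 in 6.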

How the results depend on the processing

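Numbers are members called of those tested. With median-of-ratios scaling the LPS counts went from 85 to 40 in B6 and from 78 to 35 in C57 cells, and the counts of differing responses from 5 to 29 for C57 minus B6 and from 2 to 9 for PWD minus C57; with copies added by length as well they were 42, 40, 29 and 9. Without structural RNA the differing responses were 31 (from 13), 13 and 10 for PWD minus B6, C57 minus B6 and PWD minus C57. No filter gave 8 for PWD minus B6, and the 5 TPM filter and the replicate block each gave 1 for PWD minus C57. For LPS differences and responses the block was the presumed mouse, which pairs libraries. For strain comparisons it was the replicate number, which pairs no mice. The block fit also lost 4 calls of named genes, mt-Nd4 in C57 cells (adjusted p = 0.075) and the differing responses of Cycs, Uqcrfs1 and Ndufa2. It gained 1, the differing response of mt-Co3 for PWD minus B6 (adjusted p = 0.0349), and changed no other named call. Replicates 1 and 2 alone gave 30 (from 64) for LPS in PWD cells, 36 (from 65) and 16 (from 32) for untreated PWD and C57 minus B6, 34 (from 54) for C57 minus B6 with LPS, 1 and 13 for the responses of C57 minus B6 and PWD minus C57, and a PWD ratio difference of 0.076. Replicates 3 and 4 alone gave 51 for LPS in C57 cells, 6 for PWD minus C57 responses and a PWD ratio difference of 0.42. These pairs of replicates halve the libraries.

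Leaving out 1 library gave 82 to 86, 69 to 81 and 57 to 72 calls for LPS in B6, C57 and PWD cells. The strain counts were 52 to 72, 23 to 37 and 34 to 41 untreated (PWD minus B6, C57 minus B6, PWD minus C57), 64 to 71, 41 to 54 and 49 to 53 with LPS, and 8 to 13, 4 to 8 and 0 to 2 for the responses. The ratio differences were 0.10 to 0.30, 0.26 to 0.51 and 0.19 to 0.32.

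Signs turned with median-of-ratios scaling for Cox4i1 (0.27, 0.10 and 0.18 in B6, C57 and PWD cells), Atp5b (0.22 and 0.071 in B6 and C57), Ndufs8 (0.016 and 0.0049 in C57 and PWD), Cycs in PWD (0.36) and mt-Co1 in C57 cells (0.14). With copies by length they turned for mt-Atp6 (0.090 and 0.18 in C57 and PWD), mt-Nd2 (0.26 for PWD minus B6, 0.19 and 0.21 for PWD minus C57 untreated and with LPS) and mt-Co1 (0.10 for PWD minus B6). Unweighted copies gave 0.092 and 0.18, 1.02, 0.95 and 0.96, and 0.10 for the same, 0.014 for mt-Nd5 (PWD minus B6) and 0.28 for Cox7a2l (PWD minus C57). Copies with median-of-ratios scaling gave 0.42, 0.46 and 0.56 for mt-Atp6 in B6, C57 and PWD cells, 0.14 for mt-Co1 in C57, and 0.11, 0.24 and 0.28 for mt-Nd2. The cause was not tested. The checks covered 113 pairs of a gene and a comparison, called or not, some of them of genes outside the members. Of these pairs, 112 kept their call or lack of one with the 0.1 TPM pseudocount and 111 without structural RNA, and no call turned in sign. The mt-Co1 call in C57 cells was lost without any 1 of 6 libraries. Unknown depth and the counting of shared reads limit the mt- genes and Cox7a2l.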
